A study of Mus musculus with 4 samples.

Results

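The glutathione transferases examined here are 10 genes expressed in the somatic cells of the mouse testis: Gsta2, Gsta3 and Gsta4 of the alpha class, Gstm1, Gstm2 and Gstm5 of the mu class, Gstt1 (theta), Gstp1 (pi), Gsto1 (omega) and the membrane-bound Mgst1. They were represented by every Affymetrix 430A probe set annotated to one of these genes alone, 16 of the 20380 single-gene probe sets and 10 of the 12393 genes on the array. Of the 16 probe sets, 15 lay above the background bound on all 4 arrays; the exception was 1 of the 2 Mgst1 probe sets, which lay above it on none. The background bound of an array is the highest signal among its 27 bacterial control probe sets.

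The 4 arrays carried RNA from seminiferous tubules of XX/Sry males, seminiferous tubules of W/Wv males, whole testis of XX/Sry males and whole testis of W/Wv males, all adult, with 1 array per group. XX/Sry males are XX mice made male by an Sry transgene, and W/Wv males carry mutations in the receptor gene Kit; testes of both kinds hold few or no germ cells, and the study asked how well their somatic cells can support spermatogenesis. The W/Wv males came from a WB by B6 cross and were purchased. The sources used here do not state the background strain of the XX/Sry males, the number of animals per sample or whether both preparations of a genotype share animals, so genotype and strain cannot be told apart. Tubules had been prepared with collagenase (5 mg/ml, 37 °C, 40 min) and a 70 µm strainer to remove interstitial cells.

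Glutathione transferases join the tripeptide glutathione to reactive, electrophilic molecules, which makes them soluble and ready for export, and several members also reduce lipid hydroperoxides. The soluble enzymes work as dimers and are sorted into classes by sequence, whereas Mgst1 sits in the membranes of the endoplasmic reticulum and mitochondria. In rodent testis, transferases are known from Leydig cells, which make testosterone, from Sertoli cells, which nurse the germ cells inside the tubules, and from germ cells.

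Expression of many of these genes responds to the transcription factor Nrf2 through the antioxidant response element. Its core, TGACNNNGC, was searched on both strands in the 250 bases upstream of the annotated gene starts (RefSeq, GRCm38.p6), where 9 of the 10 genes had 11 start windows. A match was present in 3 of the 11 windows, those of Gsta3, Gstm5 and Mgst1, and in 10.2% of all 32851 windows. These windows are shown because they hold the match. Gsta3 and Gstm5 were also the genes that differed most between tubules and whole testis. Mgst1, by its brighter probe set, had log2 ratios of tubules over whole testis of -0.94 in XX/Sry and 0.036 in W/Wv. A link between the match and these ratios was not tested. All 3 genes lie on the plus strand, capitals mark the match, and in Mgst1 the match reads on the opposite strand.
Gsta3 (chr1:21240335-21240584): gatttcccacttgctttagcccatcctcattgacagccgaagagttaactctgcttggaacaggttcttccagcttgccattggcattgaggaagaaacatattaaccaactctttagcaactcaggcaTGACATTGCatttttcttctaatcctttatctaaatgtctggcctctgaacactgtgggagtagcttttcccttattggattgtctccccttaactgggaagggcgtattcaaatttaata
Gstm5 (chr3:107895604-107895853): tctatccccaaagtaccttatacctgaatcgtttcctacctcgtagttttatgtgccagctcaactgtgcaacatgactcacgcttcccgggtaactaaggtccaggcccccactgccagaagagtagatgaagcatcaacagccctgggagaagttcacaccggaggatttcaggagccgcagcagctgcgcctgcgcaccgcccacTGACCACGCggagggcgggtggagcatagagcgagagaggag
Mgst1 (chr6:138140277-138140526): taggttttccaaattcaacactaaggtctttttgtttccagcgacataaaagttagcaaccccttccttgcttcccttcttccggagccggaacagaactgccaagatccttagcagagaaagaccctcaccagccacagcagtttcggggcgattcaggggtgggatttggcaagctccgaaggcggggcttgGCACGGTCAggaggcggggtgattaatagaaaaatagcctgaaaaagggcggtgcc
The AP-1 motif TGANTCA, which overlaps none of these 3 matches, was found upstream of Gstm5 and Gstp1, and in 6.75% of all windows. The motif of steroidogenic factor 1, AAGGTCA, was found upstream of none of the 9 genes and in 4.08% of all windows. These letter matches describe the windows and do not show that a factor binds there.

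The sex-linked transcripts ran as the labels state: the Y-linked gene Eif2s3y gave 28.2 and 9.5 in XX/Sry tubules and whole testis, against 580.3 and 795 in the W/Wv samples, and Xist ran the opposite way. The signals had been scaled per array; median signals lay between 157 and 183, background bounds between 46.1 and 76.3, and the 3' to 5' ratio of the Gapdh control between 0.733 and 0.974. The W/Wv tubule array stood apart: its spike-in controls lay a median of 0.46 (log2) above their mean over the arrays, against -0.18 to -0.09 on the other 3, and 75.3% of its probe sets exceeded the bound, against 69.8% to 71.9%. That array enters every genotype ratio in tubules and every preparation ratio in W/Wv, and its part in them was not tested. Defining markers of 4 cell types were followed beside the transferases as summed signals. The 5 Leydig markers measured, of 7 listed, summed to 21820.4 in XX/Sry tubules, 9134 in W/Wv tubules, 57785 in XX/Sry whole testis and 36461 in W/Wv whole testis. The 8 macrophage markers summed to 3572, 4782, 16195 and 12211 in the same order, and the 11 Sertoli markers measured, of 12 listed, to 89551, 101310.4, 75805 and 65612. Such sums weigh the brightest probe sets most. The brightest Sertoli marker alone gave 38329, 50416, 35925 and 29276. The 8 germ cell markers summed to 782, 703, 757 and 5174; all 8 lay above the bound in W/Wv whole testis and 3 did on each other array. The W/Wv whole testis array enters every genotype ratio in whole testis and every preparation ratio in W/Wv. The part of its germ cell transcripts in these ratios was not tested. In such bulk samples, fewer cells of a type and less RNA per cell cannot be told apart.

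**Figure D1:**
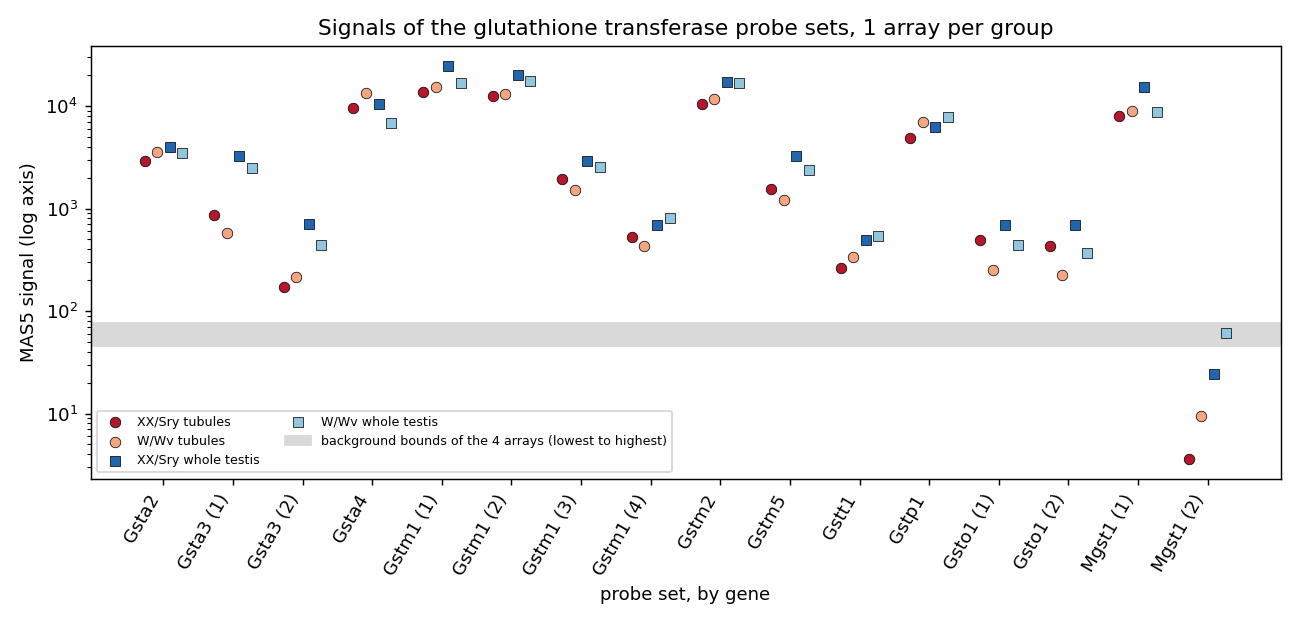
Signal of each of the 16 probe sets (log axis) on the 4 arrays, 1 point per array, with the range of the 4 background bounds shaded and probe sets of 1 gene numbered by mean signal. Levels are comparable within a probe set only; both Gsta3 probe sets have their 2 tubule points well below their 2 whole testis points, and the second Mgst1 probe set is the only one with each signal below its own array's bound.

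The preparation comparison asked which transferases were lower or higher in tubules prepared to remove interstitial cells, within each genotype. Leydig marker signal remained in the tubules. It summed to 21820.4 against 57785 in whole testis for XX/Sry, and to 9134 against 36461 for W/Wv. Gsta3 was the 1 gene of 10 that was at least 2-fold lower in tubules in both genotypes, and 0 genes were higher by that rule. Over all 12393 genes the rule called 5.74% lower and 1.32% higher (18.6% of calls higher, 31.7% after median centring and 33.3% after quantile normalisation). The members' median log2 ratio of tubules over whole testis was -0.79 in XX/Sry and -0.34 in W/Wv, against -0.02 and -0.15 for all genes. All 10 genes had a ratio below 0 in XX/Sry, and 7 of 10 did in W/Wv. Of all genes 51.0% and 58.4% did. Like all 10 members, 6000 genes were at or above the median signal on all 4 arrays. Their medians were 0.07 in XX/Sry and 0.01 in W/Wv, and 45.1% and 49.5% of them were below 0. Median centring raised the ratios by 0.11 in XX/Sry and 0.22 in W/Wv, which turned Gsta4 in XX/Sry (0.00) and Gstm1 (0.08) and Gstp1 (0.08) in W/Wv above 0; quantile normalisation turned Gsta4 in XX/Sry (0.02).

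Gsta3 encodes an alpha-class transferase whose human counterpart also isomerises steroid intermediates on the way to testosterone. Its brighter probe set, 1423436_at, had signals of 862 in XX/Sry tubules and 578 in W/Wv tubules, against 3277 in XX/Sry whole testis and 2508 in W/Wv whole testis. Its signal was lower in tubules by 3.80-fold in XX/Sry and 4.34-fold in W/Wv. The other probe set, 1423437_at, had 172 and 213 in XX/Sry and W/Wv tubules and 702 and 445 in whole testis. It was 4.08-fold and 2.09-fold lower in tubules.

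An additive fit of genotype and preparation, tested with limma over 22626 probe sets, gave the brighter Gsta3 probe set a tubule effect of -2.02 on the log2 scale (SE 0.24) and an adjusted p of 0.00328. It was the 1 of the 16 member probe sets past an adjusted p of 0.05, against 1.22% of all probe sets; the other Gsta3 probe set had an adjusted p of 0.0736. The fit has 1 residual degree of freedom and takes the disagreement between the 2 genotypes as its error, so it holds no spread between animals. With a variance prior that ignores signal level the adjusted p became 0.544 and the call was lost; over the 5 alternative fits it ranged from 1.61e-05 to 0.544.

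Between preparations, the Leydig and macrophage markers were lower in tubules, as Gsta3 was. All 5 Leydig markers were at least 2-fold lower in tubules in both genotypes, by 2.02-fold to 5.87-fold in XX/Sry and 2.83-fold to 5.35-fold in W/Wv. Of the 8 macrophage markers 7 were lower by the rule, and all 8 spanned 1.60-fold to 13.7-fold in XX/Sry and 1.42-fold to 4.56-fold in W/Wv. The folds of the brighter Gsta3 probe set lay within the spans of both lists. The macrophage spans are wide and also held Gstm5 (2.08-fold and 1.97-fold), Gstt1 (1.87-fold and 1.60-fold) and Gstm2 (1.63-fold and 1.44-fold). Of 11 Sertoli markers, 0 were lower and 0 higher by the rule. The 6 endothelial markers had median log2 ratios of 0.43 in XX/Sry and 0.42 in W/Wv, with 4 above 0 in each genotype. By the rule 0 of them were lower and 1 was higher, a gene below background in both whole testis samples. The 6 peritubular myoid markers had medians of 0.39 and 0.91, with 0 lower and 0 higher. The part of these cell types in the Gsta3 ratio was not tested.

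The other alpha-class genes behaved differently from Gsta3. Gsta4, whose enzyme prefers the lipid peroxidation product hydroxynonenal, had 9672 in XX/Sry tubules and 13359 in W/Wv tubules, against 10452 in XX/Sry whole testis and 6818 in W/Wv whole testis. It was 1.96-fold higher in W/Wv tubules and 1.08-fold lower in XX/Sry tubules. The W/Wv ratio passed 2-fold after median centring (1.19 on the log2 scale). Gsta2, which also reduces organic hydroperoxides, had 2916 and 3589 in XX/Sry and W/Wv tubules and 3950.2 and 3499 in whole testis; its ratios of 1.36-fold lower and 1.03-fold higher were the smallest range of the 10 genes (0.44 on the log2 scale between the highest and lowest array).

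**Figure D2:**
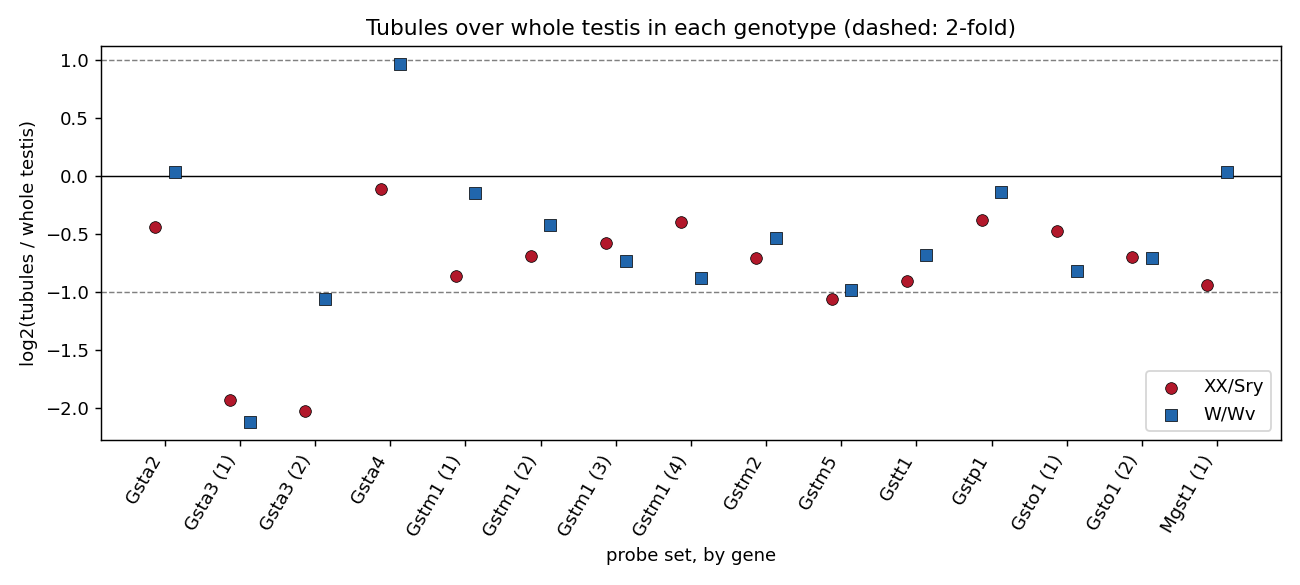
Log2 ratio of tubules over whole testis for the 15 probe sets above background on all arrays, circles for XX/Sry and squares for W/Wv, each from 2 single arrays, with dashed lines at 2-fold. The 2 Gsta3 probe sets lie at or below -1.06 in both genotypes, Gstm5 lies beside the line, and Gsta4 is near 1 in W/Wv alone.

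Gstm5, a mu-class gene, stood at the threshold of the rule. Its signals were 1554 and 1202 in XX/Sry and W/Wv tubules, against 3238 and 2373 in whole testis. It was 2.08-fold lower in XX/Sry tubules and 1.97-fold lower in W/Wv tubules. The additive fit by limma gave -1.02 (SE 0.24) with an adjusted p of 0.0745, which fell between 0.0252 and 0.582 in the 5 alternatives and passed in 2 of them; Gstm5 passed 2-fold in both genotypes after quantile normalisation and in neither after median centring (-0.95 in XX/Sry and -0.76 in W/Wv on the log2 scale).

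Gstm1 and Gstm2, mu-class enzymes that conjugate a wide range of aromatic electrophiles, were lower in tubules by less than 2-fold. Gstm2 had 10549 and 11690.2 in XX/Sry and W/Wv tubules and 17236 and 16863 in whole testis, 1.63-fold and 1.44-fold lower. The 4 Gstm1 probe sets all had ratios below 0 in both genotypes, from -0.86 to -0.39 in XX/Sry and from -0.88 to -0.14 in W/Wv. The brightest, 1416416_x_at, had 13643 and 15399.7 in XX/Sry and W/Wv tubules and 24826 and 16981 in whole testis; its suffix marks probes that can match other transcripts, and mu-class copies are close enough in sequence that their signals may be mixed.

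RefSeq places 7 mu-class genes side by side on chromosome 3, in the order Gstm5, Gstm7, Gstm6, Gstm3, Gstm2, Gstm1, Gstm4. All 7 were below 0 in XX/Sry tubules, with log2 ratios from -1.06 (Gstm5) to -0.22 (Gstm4). In W/Wv, the members Gstm5, Gstm2 and Gstm1 were below 0 (-0.98, -0.53 and -0.14; Gstm1 at 0.08 after median centring), whereas Gstm7 (0.48), Gstm6 (0.56), Gstm3 (0.47) and Gstm4 (0.18) were above 0. Gstm5 thus had a ratio of -0.98 beside its neighbour Gstm7 at 0.48 on the same pair of W/Wv arrays; the difference was not tested.

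**Figure D3:**
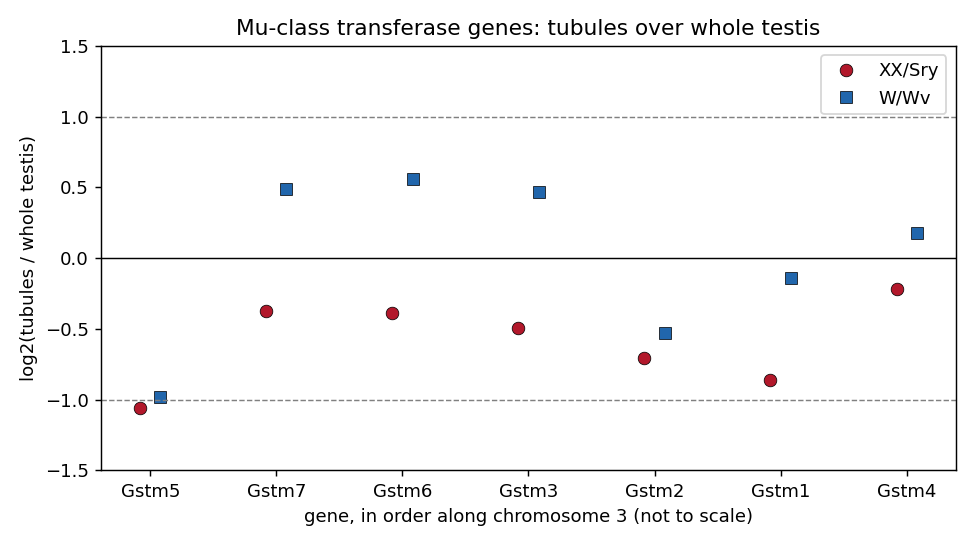
Log2 ratio of tubules over whole testis for the 7 mu-class genes in their order along chromosome 3 (evenly spaced), by the brightest probe set of each, circles for XX/Sry and squares for W/Wv. All XX/Sry points lie below 0, and 4 of the 7 W/Wv points lie above it.

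The remaining classes had ratios below 2-fold. Gstt1, a theta-class enzyme acting on small halogenated compounds, had 264 and 339 in XX/Sry and W/Wv tubules, against 494 and 543 in whole testis. It was 1.87-fold and 1.60-fold lower in tubules. Gsto1, an omega-class enzyme with thiol transferase and dehydroascorbate reductase activity, was 1.39-fold lower in XX/Sry tubules and 1.77-fold lower in W/Wv tubules. Gstp1, the pi-class enzyme known for binding the kinase JNK, had 4839 and 7069.5 in XX/Sry and W/Wv tubules and 6289.5 and 7786 in whole testis. It was 1.30-fold and 1.10-fold lower in tubules. Mgst1, which protects membranes from peroxidation, had 7959.9 and 9049.6 in XX/Sry and W/Wv tubules and 15273 and 8826 in whole testis, so that XX/Sry whole testis stood above the other 3 arrays. In the additive fit by limma, 8 of the 16 member probe sets had an unadjusted p under 0.05 for preparation (13.9% of all probe sets did), namely both of Gsta3, 2 of the 4 of Gstm1, 1 of the 2 of Gsto1, those of Gstm5 and Gstt1, and the Mgst1 probe set that lay below background on all 4 arrays.

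The genotype comparison set XX/Sry against W/Wv in each preparation. None of the 10 genes was 2-fold different in both preparations: 0 were higher and 0 lower, where the rule called 1.98% of all genes higher and 3.22% lower (38.0% of calls higher, 48.8% after quantile normalisation and 60.6% with a constant of 50 added). In tubules the members' median log2 ratio was -0.18, with 3 of 10 above 0, against a median of 0.00 and 49.8% above 0 over all genes. In whole testis it was 0.42, with 8 of 10 above 0, against -0.10 and 43.5%. No member ratio reached 2-fold in either preparation, as was true of 93.8% in tubules and 94.6% in whole testis of the 6000 genes that, like all 10 members, were at or above the median signal on all 4 arrays. The additive fit by limma called 0 of the 16 member probe sets at an adjusted p under 0.05 (0.15% of all probe sets); 2 of the 16, both of Gsto1, had an unadjusted p under 0.05, as did 8.74% of all. Standard errors of the member effects above background lay between 0.24 and 0.36 on the log2 scale.

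Gsto1 came closest to the rule and was higher in XX/Sry with both of its probe sets. The probe set 1416531_at had 496 in XX/Sry tubules against 251 in W/Wv tubules; the whole testis signals were 686.5 in XX/Sry whole testis against 443 in W/Wv whole testis, 1.97-fold and 1.55-fold higher. The probe set 1456036_x_at had 427 against 224 in tubules and 691 against 366 in whole testis, 1.90-fold and 1.89-fold higher. Its suffix marks probes that can match other transcripts. Effects in the additive fit by limma were 0.81 (SE 0.30, adjusted p 0.466) and 0.92 (SE 0.31, adjusted p 0.391).

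Gsta3 and Gstm5 were also higher in XX/Sry in both preparations, by less than Gsto1 in tubules. The brighter Gsta3 probe set was 1.49-fold higher in tubules and 1.31-fold higher in whole testis, but its other probe set was 1.24-fold lower in tubules and 1.58-fold higher in whole testis. Gstm5 was 1.29-fold and 1.36-fold higher. All 5 Leydig markers had ratios above 0 in both preparations (medians 1.34 in tubules and 0.63 in whole testis), with Hsd17b3 alone at 2-fold in both; their part in the Gsta3, Gstm5 and Gsto1 ratios was not tested.

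Gstp1 and Gstt1 were lower in XX/Sry in both preparations. Gstp1 was 1.46-fold lower in tubules and 1.24-fold lower in whole testis, and Gstt1 was 1.28-fold and 1.10-fold lower. The fit by limma gave adjusted p-values of 0.727 for Gstp1 and 0.891 for Gstt1, so neither passed.

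The other 5 genes, Gsta2, Gsta4, Gstm1, Gstm2 and Mgst1, ran opposite ways in the 2 preparations by their brightest probe sets, each higher in XX/Sry whole testis and lower in XX/Sry tubules. Signs were opposite for 45.5% of all genes, so 5 of 10 is near the background; that order, below 0 in tubules and above 0 in whole testis, held for 19.6% of all genes. The macrophage markers had medians of -0.69 in tubules (7 of 8 below 0) and 0.45 in whole testis (7 of 8 above 0). The Sertoli markers had -0.28 in tubules (8 of 11 below 0) and 0.14 in whole testis (6 above 0 and 5 below). The part of either list was not tested. Gsta4 was 1.38-fold lower in tubules and 1.53-fold higher in whole testis, and Mgst1 1.14-fold lower and 1.73-fold higher. The brightest Gstm1 probe set was 1.13-fold lower and 1.46-fold higher, and Gsta2 1.23-fold lower and 1.13-fold higher. Gstm2 was only 1.11-fold lower and 1.02-fold higher, so its opposite signs rest on ratios close to no difference. Of the 4 Gstm1 probe sets, 2 were above 0 in tubules and 3 in whole testis, so the direction depended on the probe set.

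**Figure D4:**
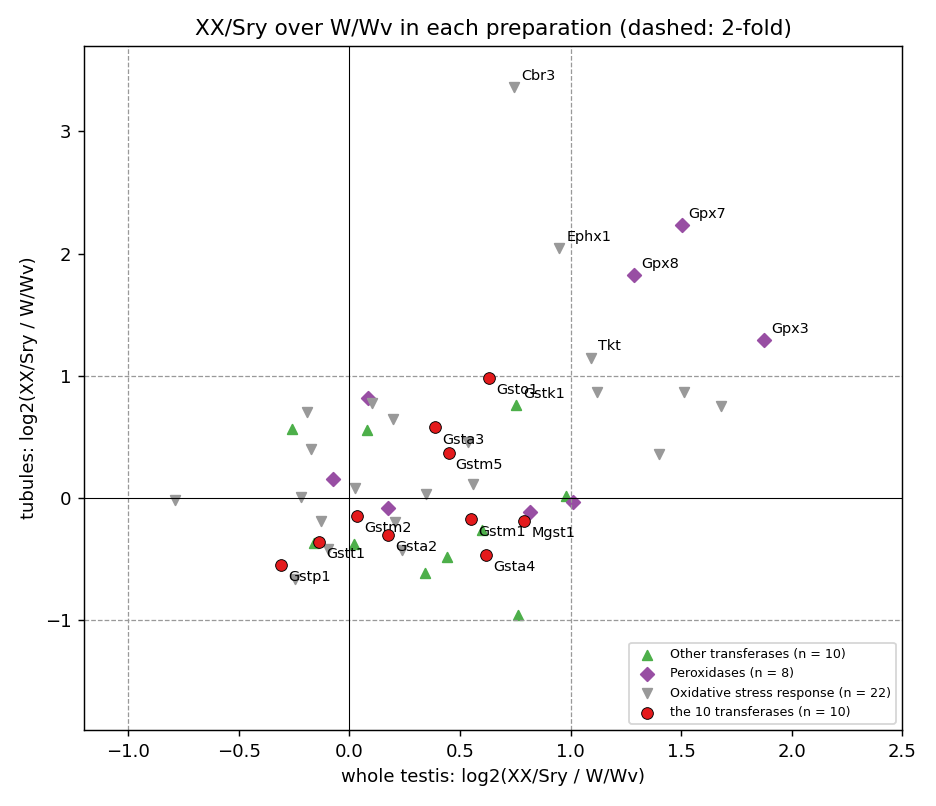
Log2 ratio of XX/Sry over W/Wv in tubules (vertical axis) against that in whole testis (horizontal axis), for the brightest probe set of the 10 transferases and of the genes of 3 further lists that lay above background on all arrays, with dashed lines at 2-fold. The 10 transferases lie within 2-fold on both axes, and Gpx3, Gpx7, Gpx8 and Tkt lie past 2-fold on both.

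Genes of glutathione metabolism, peroxide reduction, oxidative stress response and conjugate export were read the same way from fixed lists. Beside each count stand the shares of all genes given above. They were 1.98% higher and 3.22% lower by genotype, and 1.32% higher and 5.74% lower by preparation. Of 13 further transferases measured, of 17 listed, 1 was higher in XX/Sry in both preparations, 0 were lower and 12 were neither. The 1 gene, Mgst2, lay above background in XX/Sry whole testis alone. In tubules against whole testis 3 of the 13 were lower (Gstk1, Mgst2 and Hpgds) and 0 higher. Mgst2 and Hpgds lay below background in W/Wv tubules, and with the bound in its place Hpgds was at least 1.54-fold lower there, which does not establish 2-fold. Gstk1, a transferase of mitochondria and peroxisomes, had 411 and 243 in XX/Sry and W/Wv tubules, against 946 and 561 in whole testis, 2.30-fold and 2.31-fold lower, with an adjusted p of 0.0810 by limma; after median centring its W/Wv ratio was -0.99, just under the rule.

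Genes of glutathione synthesis, turnover and reduction did not pass in tubules against whole testis (0 of 17 measured, of 23 listed), and 1 was lower in XX/Sry (Ggt7, below background on all arrays). Gclc, the catalytic subunit of the rate-limiting ligase, had 1104 in XX/Sry tubules against 700.0 in W/Wv tubules, with 788 in XX/Sry whole testis against 570 in W/Wv whole testis, 1.58-fold and 1.38-fold higher. Gclm, its regulatory subunit, was 1.04-fold and 1.30-fold lower. Averaged over the 2 Gclc probe sets, the genotype log2 ratios were 0.223 in tubules and 0.385 in whole testis. The brighter Gclc probe set alone gave 0.657 and 0.467, so the size in tubules depended on the probe set. The genes for conjugate export passed in neither comparison (0 of 4 measured, of 6 listed).

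Among the peroxidases, which reduce peroxides, 3 of 11 measured, of 14 listed, were higher in XX/Sry in both preparations, 1 was lower and 7 were neither. Gpx3, a secreted glutathione peroxidase, had 849 in XX/Sry tubules against 347 in W/Wv tubules, with 2247 in XX/Sry whole testis against 612 in W/Wv whole testis, 2.45-fold and 3.67-fold higher. Gpx7 and Gpx8, both of the endoplasmic reticulum, were 4.70-fold and 2.83-fold, and 3.54-fold and 2.44-fold, higher. Their adjusted p-values by limma were 0.0559, 0.0715 and 0.0713, so none passed the fit. The 1 that was lower, Gpx6, lay above background in W/Wv whole testis alone.

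Of 23 oxidative stress response genes measured, of 24 listed, 1 was higher in XX/Sry (Tkt), 1 lower (Maff) and 21 neither; in tubules against whole testis 0 were higher and 1 lower (Ephx1). Maff lay below background on both XX/Sry arrays, and its whole testis fold, at least 1.96, does not establish 2-fold. Tkt, the transketolase of the pentose phosphate pathway, was 2.22-fold higher in tubules and 2.13-fold higher in whole testis; its whole testis ratio was 0.99 after quantile normalisation. Ephx1, the microsomal epoxide hydrolase, had 4614 and 1117 in XX/Sry and W/Wv tubules, against 11426 and 5919.8 in whole testis, 2.48-fold and 5.30-fold lower in tubules with an adjusted p of 0.0146 by limma. It was also 4.13-fold higher in XX/Sry tubules and 1.93-fold higher in XX/Sry whole testis, where it passed 2-fold after median centring (1.04 on the log2 scale). Nfe2l2, which encodes Nrf2, passed in neither comparison, with genotype log2 ratios of -0.18 in tubules and -0.13 in whole testis.

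The genes whose pattern over the 4 arrays was most like that of Gsta3 were Ttpa, Akr1cl, Tm7sf2, Pon3 and Serpinb6b, with root mean square differences of centred log2 signals from 0.07 to 0.19 among 7411 genes above background. Ttpa, the alpha-tocopherol transfer protein, had 181 and 134 in XX/Sry and W/Wv tubules and 714 and 592 in whole testis. For Gstm1 the closest were Dmxl1, Atg5, Scoc, C1ra and Slc8b1, from 0.02 to 0.06. Likeness over 4 arrays is a description and carries no test.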

How the data were processed

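Total RNA from 4 samples was labelled and hybridised to 4 Affymetrix 430A arrays for 16 hours, per the labels. The deposited values are array intensity, as linear signals; MAS5 is named in the submitters' processing notes and Microarray Suite in the design text. Trimmed means (without the lowest and highest 2%) were 500.2 on each array, so the authors had scaled each array; MAS5 detection calls were not used here, and 0 sample columns were left unused. Depth has no meaning for arrays; their number limits the precision.

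Genes came from the platform annotation (20380 of 22626 probe sets had 1 symbol, 691 several, 1555 none; RefSeq changed 0 symbols). A gene was represented by its probe set of highest mean log2 signal. Called means at least 2-fold the same way in both pairs, the rule of the design text. Where the dimmer signal lay below its bound, the fold is a lower bound. The additive fit used limma 3.58.1 in R 4.3.3 (trend, 9.98 prior degrees of freedom, two-sided, Benjamini-Hochberg over 22626 probe sets) and was tested on simulated data. The 2 comparisons share all 4 arrays. Members, lists, tests and the naming rule (all members, rate-limiting synthesis and reduction genes, and list genes past 2-fold in both pairs where each pair's brighter array reached its median) were chosen with earlier results of these data known. Nfe2l2, Hmox1, Nqo1, Gpx6, Mgst2, Hpgds, Ggt7, Maff and Hsd17b3 were named after their values were seen. So were Ggt5, Oplah, the mu-class neighbours and the genes of the closing observations. Alternatives changed scaling, offset, filter, threshold, probe set choice and the fit's prior.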

Additional observations from a re-analysis of the deposited data

Results flagged for a closer look

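Genotype ratios ran opposite ways in the 2 preparations for 5 of the 10 transferases, against 45.5% of all genes, and for 8 of the 17 genes of glutathione synthesis, turnover and reduction; of these 8, Gss and Gsr are given here, and Ggt5 (-1.38) and Oplah (-1.39) had differences as large as that of Gsr. Each direction rests on 2 single arrays and none of these differences was tested. Given as the log2 ratio in tubules minus that in whole testis, the difference was -1.08 for Gsta4, -0.98 for Mgst1, -0.72 for Gstm1, -0.47 for Gsta2, -0.18 for Gstm2, 0.55 for Gss and 1.36 for Gsr. The same numbers are the difference of the preparation ratios, XX/Sry minus W/Wv, and there Gsta2, Gsta4, Mgst1 and Gss had opposite signs, as did 40.5% of all genes. After median centring neither Gss (0.53 in XX/Sry and 0.09 in W/Wv) nor Gsta4 (0.00 and 1.19) did. Gsta4 reached -0.11 in XX/Sry and 0.97 in W/Wv in that comparison. Gsr, the glutathione reductase, had 1274 in XX/Sry tubules against 854 in W/Wv tubules. In whole testis it had 491 in XX/Sry against 845 in W/Wv. Averaged with its further probe set, its preparation ratio in XX/Sry was 0.57, under 2-fold, against 1.375 by the brighter one. Its genotype ratios became 0.472 in tubules and -0.425 in whole testis, against 0.576 and -0.783. The size of the Gsr difference thus depended on the probe set.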

How the results depend on the processing

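Of 200 recomputed member ratios (10 genes, 4 ratios, 5 settings), 64 could not change by construction, because every signal lay above its bound or the gene had 1 probe set. Of the other 136, 130 kept their side of 2-fold, 1 fell under it (Gstm5 in XX/Sry, median centring), 5 passed it, and 7 changed sign, none of them past 2-fold before; with the mean of all probe sets these included Gstm1 by genotype in tubules (0.09) and Mgst1 by genotype in whole testis (-0.28) and by preparation in W/Wv (-1.33). The genes lower in tubules in both genotypes numbered 1 as reported and 2 after quantile normalisation (Gstm5 added), 2 with the mean of all probe sets (Mgst1 added, through its probe set below background) and 3 at a threshold of 1.5-fold (Gsta3, Gstm5 and Gstt1), where 12.1% of all genes were lower. At 1.5-fold, 1 gene, Gsto1, was higher in XX/Sry in both preparations, as were 5.04% of all genes. In the additive fit by limma the member probe sets past an adjusted p of 0.05 for preparation numbered 2 after quantile normalisation, 3 over probe sets with at least 1 array at or above its median, and 0 with eBayes without trend, against 1 as reported. Of 132 ratios of 10 other named genes that could change, 126 kept their side of 2-fold and 3 changed sign, all by preparation in W/Wv: Gss after median centring (0.09, against -0.13 as reported), and Gsr after quantile normalisation (-0.04) and with the mean of all probe sets (-0.32), against 0.02. The share of called genes that were higher moved for all genes to 48.8% (genotype) and 33.3% (preparation) after quantile normalisation, to 31.7% (preparation) after median centring and to 60.6% (genotype) with a constant of 50 added, against 38.0% (genotype) and 18.6% (preparation) as reported; the constant left 66 genes higher and 43 lower by genotype, and 43 higher and 233 lower by preparation, against 245, 399, 163 and 711. The labels give no replicate numbers, so no replicate could serve as a block; the additive fit sets each effect within the other factor. Signals near background and single arrays limit all values.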

Other observations

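The theta-class genes Gstt3, Gstt1, Gstt4 and Gstt2 stand side by side on chromosome 10, and 3 of them were measured. Gstt2 had 90.2 in XX/Sry tubules and 176 in W/Wv tubules, against 472 in XX/Sry whole testis and 278 in W/Wv whole testis, 5.23-fold and 1.58-fold lower in tubules. In XX/Sry tubules Gstt3 lay below background, which puts it at least 3.22-fold lower than in whole testis, and 1.73-fold lower in W/Wv tubules. Gstt1 was lower by 1.87-fold and 1.60-fold in the same pairs.

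Abcc1, an exporter of glutathione conjugates, ran opposite to Gsta3 between preparations: it had 4830.2 and 6622 in XX/Sry and W/Wv tubules and 2049 and 3479 in whole testis, 2.36-fold and 1.90-fold higher in tubules. Cbr3, a carbonyl reductase, had 794 in XX/Sry tubules against 77.1 in W/Wv tubules, 10.3-fold higher. In whole testis it had 529 in XX/Sry against 316 in W/Wv, 1.67-fold higher. The larger fold rests on the 77.1, which lay above that array's bound of 46.1 but below its median of 157. That is also the array whose spike-in controls stood apart.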
